A study of Mus musculus with 100 samples.

Results

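The data described here are the chromatin immunoprecipitation sequencing (ChIP-seq) libraries of histone H3 acetylated at lysine 27 (H3K27ac) from wild type (WT) mouse bone marrow-derived macrophages (BMDMs), compared between vehicle (Veh) and Kdo2 lipid A (KLA) treatment. They comprised 4 of the 100 samples of the series, 2 libraries per group. The members are the accessible chromatin regions of the deposited table that held 16 or more tags, that is aligned reads, in at least 1 of its 8 WT and NKO libraries, which left 18504 of 24867 regions. The cells labelled WT carried the genotype NCoR flox/flox without Cre, and so served as controls for NCoR flox/flox, LysMCre cells (NKO), in which a Cre driven by the myeloid lysozyme M locus deletes Ncor1. Both groups were grown from bone marrow of C57BL/6 mice, the strain of all H3K27ac libraries used here, aged 8 to 12 weeks, starved of serum for 12 h, and then received vehicle or 100 ng/mL KLA for 6 h. Because the mice were on a floxed background, all 4 libraries shared the loxP-flanked alleles. Further H3K27ac libraries used below for comparison came from NKO cells, from cells of genotype Wild type that received the solvent DMSO with Veh or KLA (the DMSO experiment), and from PGC1b flox/flox cells without Cre (the Pgc1b flox experiment), each with 2 Veh and 2 KLA libraries. The question of the comparison was which promoters and enhancers gained or lost this mark of activity after stimulation, and which genes lie next to them.

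KLA is the lipid A core of bacterial lipopolysaccharide and is recognised by Toll-like receptor 4 (TLR4). TLR4 signals through the adaptors MyD88 and TRIF to NF-kB, to AP-1 factors downstream of MAP kinases, and to interferon regulatory factors, the last of which induce interferon beta and, through its receptor, the interferon-stimulated genes. Acetylation of H3K27 is placed by p300 and CBP on nucleosomes flanking active promoters and enhancers and is removed by histone deacetylases, so its level is widely read as a measure of the activity of a regulatory element. In macrophages the elements themselves are selected by lineage factors such as PU.1 and C/EBP.

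Among the promoter and the distal regions with the lowest p in each direction, 8 are shown here by sequence, because the results below return to them. Each is read from the reference genome of the same build (mm10, plus strand, RefSeq assembly) inside the region, outside annotated exons, with the searched motifs in capitals. The capitals mark the letters GAAANNGAA (ISRE, the element bound by interferon-activated factors), TTGCNNAA (C/EBP), CACGTG (E-box), TTCNNNGAA (STAT), GGGCGG (Sp/KLF), TGTGGTT (RUNX), TGANTCA (AP-1) and TGCTGAC (MAF), searched on both strands, and matches on the minus strand appear as their reverse complement. Other letters searched, none of which lies in these stretches, were GGGANNTTC (kB), TGACGTCA (CRE), GAGGAAGT (PU.1), CTANNNNTA (MEF2) and GTGGGCG (EGR). The first 4 regions gained H3K27ac and the last 4 lost it.
Zbp1 promoter, gained, chr2:173218960-173219082: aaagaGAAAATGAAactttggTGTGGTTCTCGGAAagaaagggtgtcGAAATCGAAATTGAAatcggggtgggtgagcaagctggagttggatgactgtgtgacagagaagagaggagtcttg
Daxx promoter, gained, chr17:33910003-33910202: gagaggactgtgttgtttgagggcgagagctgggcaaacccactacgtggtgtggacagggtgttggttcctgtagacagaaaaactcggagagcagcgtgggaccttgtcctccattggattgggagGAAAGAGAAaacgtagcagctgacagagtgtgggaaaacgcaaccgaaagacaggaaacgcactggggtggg
Ehd1 upstream region, gained, chr19:6273770-6273969: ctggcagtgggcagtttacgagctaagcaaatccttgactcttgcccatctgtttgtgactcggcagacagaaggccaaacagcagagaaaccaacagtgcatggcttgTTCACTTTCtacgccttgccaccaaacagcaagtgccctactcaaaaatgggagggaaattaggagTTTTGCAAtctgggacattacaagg
Mir155hg upstream region, gained, chr16:84703314-84703513: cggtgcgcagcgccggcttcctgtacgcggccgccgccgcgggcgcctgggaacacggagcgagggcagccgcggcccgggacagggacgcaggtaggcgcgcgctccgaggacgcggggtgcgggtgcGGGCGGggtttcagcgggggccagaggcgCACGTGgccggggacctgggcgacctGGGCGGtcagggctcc
Mtss1 promoter-proximal region, lost, chr15:59081336-59081455: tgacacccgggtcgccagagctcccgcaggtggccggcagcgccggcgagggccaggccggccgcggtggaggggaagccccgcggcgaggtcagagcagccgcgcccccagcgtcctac
Ctdsp2 promoter, lost, chr10:126978585-126978716: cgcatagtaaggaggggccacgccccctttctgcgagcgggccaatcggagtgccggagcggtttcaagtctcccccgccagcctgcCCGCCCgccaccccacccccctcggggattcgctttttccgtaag
6820426E19Rik distal region, lost, chr6:117431085-117431284: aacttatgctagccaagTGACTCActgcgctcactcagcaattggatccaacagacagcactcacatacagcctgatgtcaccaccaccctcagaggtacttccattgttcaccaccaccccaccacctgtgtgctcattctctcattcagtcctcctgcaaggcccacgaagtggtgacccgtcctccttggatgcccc
Ap5s1 upstream region, lost, chr2:131204619-131204818: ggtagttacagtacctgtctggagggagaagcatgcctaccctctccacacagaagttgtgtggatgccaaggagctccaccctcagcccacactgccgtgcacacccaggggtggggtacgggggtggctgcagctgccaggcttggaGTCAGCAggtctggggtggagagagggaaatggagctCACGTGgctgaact
The Zbp1 stretch holds 3 ISRE matches, of which the last 2 overlap, and a RUNX match that overlaps a STAT match. The Daxx and Ehd1 stretches hold 1 ISRE match each, and that of Ehd1 also has a C/EBP match. The GC-rich Mir155hg and Ctdsp2 stretches hold Sp/KLF matches, and no searched motif lies in that of Mtss1.

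The WT libraries held 14.5 to 19.6 M tags, of which 5.55% and 5.66% lay in the regions in the Veh libraries and 6.20% and 6.70% in the KLA libraries. The log2 values of replicates correlated across regions with r of 0.911 for Veh and 0.872 for KLA, and replicates differed by more than counting error, so no library was a copy of another. All 10 macrophage marker genes examined, among them Adgre1, Csf1r, Cd68, Spi1 and Lyz2, had at least 1 tested region, and their summed tags were 615 and 625 per 10 M in the Veh libraries against 663 and 724 in the KLA libraries. Of the regions of these genes none was gained and 2 were lost. Each list of T cell, B cell, neutrophil, dendritic cell, erythroid, stromal and endothelial markers had 1 gene with a tested region, and its summed level was 2.52 to 58.0 tags per 10 M in Veh and 1.26 to 77.2 in KLA. Of these genes Camp and Kdr had a gained region and Flt3 had a lost region, and their part in the results was not tested. Defining markers such as Cd3e, Ly6g, Zbtb46, Gata1, Col1a1 and Cdh5 had none. In such bulk cultures, a change in the share of cells that carry the mark and a change in its amount per cell cannot be told apart.

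KLA treatment raised H3K27ac at 1200 regions and lowered it at 688, by more than 2-fold at an adjusted p under 0.05 (edgeR quasi-likelihood test, Benjamini-Hochberg). Tag values below are scaled to libraries of 10 M tags and listed as replicate 1 and replicate 2, and ± gives the SE of the log2 change in the fit. The called regions were 6.49% and 3.72% of the regions tested, 10.2% together, and the shares against which each gene list below is read. Gained regions went from a median of 15 tags per 10 M in Veh to 43.5 in KLA, with a median log2 change of 1.52, whereas lost regions went from 29.7 to 9.41, with a median of -1.67. Of the gained regions, 200 (16.7%) had a Veh mean under 5 tags per 10 M, against 7.97% of all tested regions. A Veh mean of 20 or more was found at 452 (37.7%), against 45.8% of all. The gains thus covered both elements with little mark at rest and elements that were already marked. Of the lost regions, 169 (24.6%) had a KLA mean under 5 tags per 10 M, against 9.53% of all. In all 1200 gained regions both KLA libraries lay above both Veh libraries, as in 34.3% of all tested regions, and in all 688 lost regions both lay below, as in 23% of all. Changes of more than 8-fold were seen at 88 gained and 50 lost regions. The median over all tested regions was 0.13 in log2, and scaling by the trimmed mean of M-values (TMM) in place of library totals moved it to -0.01, with 895 gained and 959 lost regions and hence 48.3% of the calls in the gained direction in place of 63.6%. All 895 were among the 1200 gained, and all 688 lost regions were also lost under TMM. With a single library in one group the counts fell, to 734 gained and 325 lost without Veh replicate 1, 699 and 328 without Veh replicate 2, and 770 and 545 without KLA replicate 2. Without KLA replicate 1 they were 1237 and 609, of which 955 and 405 were among the 1200 and 688. Unless stated otherwise, each called region given below with its distance kept its call under every alternative listed in the closing section, while counts of called regions can include some that did not. Distances are in bp from the transcription start site (TSS) of the nearest gene.

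**Figure D1:**
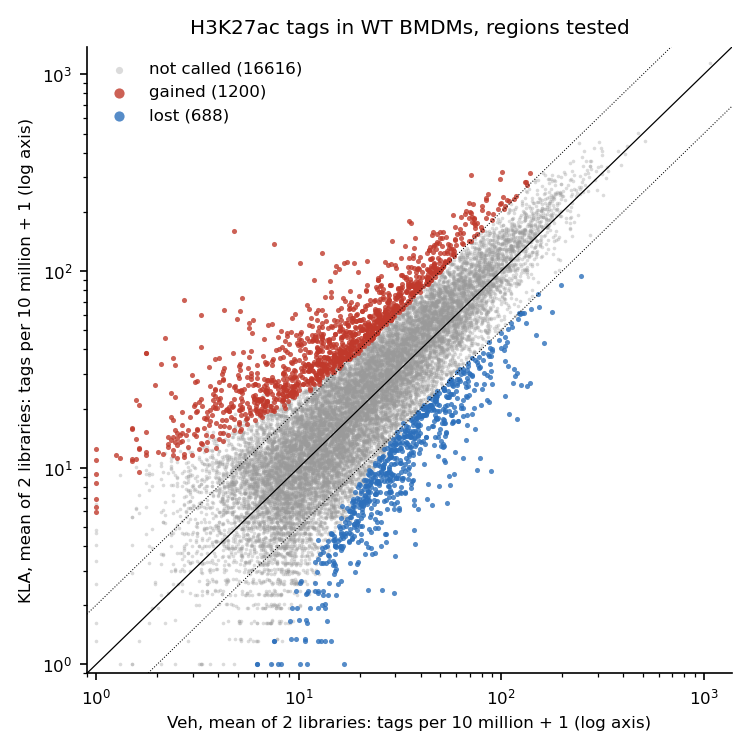
Mean H3K27ac tags per 10 M (plus 1) in the 2 Veh libraries (x axis) and the 2 KLA libraries (y axis) of WT BMDMs, 1 point per tested region, both axes logarithmic, with a solid line at equal values and dotted lines at 2-fold differences. The 1200 gained regions spread upward from low Veh values, and the 688 lost regions lie mostly at higher Veh values.

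The interferon-stimulated genes had the largest share of gained regions among the lists, with 28 of 56 regions gained (50%, against 6.49% of all tested regions) at 20 of 32 genes, no region lost, and a median log2 change of 1.22 against 0.13. Under TMM 24 were gained and 1 was lost. Zbp1 encodes a sensor of Z-form nucleic acids, and its promoter region (-60 bp, the region of the sequence above) held 33.4 and 36.2 tags per 10 M in the Veh libraries and 158 and 192 in the KLA libraries (log2 change 2.32 ± 0.20, edgeR adjusted p = 4.51e-12). A separate region in its first intron (1073 bp) held 6.30 and 3.06 tags in Veh and 40.2 and 66.9 in KLA (log2 change 3.53 ± 0.49, edgeR adjusted p = 4.21e-07). In both regions the lowest KLA library lay far above the highest Veh library. Irf7, the transcription factor that amplifies interferon production, rose at its promoter (-35 bp) from 18.9 and 17.8 to 51.6 and 82.7 (log2 change 1.86 ± 0.31, edgeR adjusted p = 1.80e-05). Irf9, the DNA-binding subunit of the ISGF3 complex, rose at 86 bp from 22.1 and 16.8 to 64.1 and 59.3 (log2 change 1.67 ± 0.30, edgeR adjusted p = 4.09e-05). Regions of effectors and regulators of the antiviral response were also gained. The dynamin-like GTPase gene Mx2 (-214 bp) went from 40.3 and 37.2 to 113 and 121 (log2 change 1.60 ± 0.20, edgeR adjusted p = 6.71e-08), and the ISG15 protease gene Usp18 (-50 bp) from 18.3 and 16.8 to 42.1 and 71 (log2 change 1.68 ± 0.32, edgeR adjusted p = 1.09e-04). Parp14, an ADP-ribosyltransferase gene, carried more mark at rest, with 79.4 and 86.1 tags at 2078 bp, just beyond the 2 kb limit for promoters, and reached 179 and 276 (log2 change 1.45 ± 0.18, edgeR adjusted p = 2.44e-08). Ifi44, Herc6, Slfn5, Dhx58 and Trim30a were also gained, with log2 changes of 2.17, 1.72, 1.91, 1.5 and 1.35. In none of these regions did a KLA library overlap a Veh library, which held for all 1200 gained regions. Not every member of the pathway was called. The Rsad2 region at 108 bp, next to the viperin gene, held 14.5 and 29 in Veh and 27 and 31.7 in KLA (log2 change 0.41 ± 0.37, edgeR adjusted p = 0.516). Daxx, a histone chaperone gene outside the list, was among the gained promoters with the lowest p, with 66.2 and 66.2 tags at 501 bp in Veh and 179 and 223 in KLA (log2 change 1.60 ± 0.17, edgeR adjusted p = 5.51e-10).

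The NF-kB subunits and their inhibitors had 18 gained and 5 lost regions of 68 (26.5% and 7.35%), with a median log2 change of 0.51. Among the gained regions were those of the noncanonical subunit gene and of inhibitors that terminate the signal. Nfkb2, which encodes p100/p52, rose at 197 bp from 24.6 and 26.5 to 116 and 104 tags per 10 M (log2 change 2.10 ± 0.24, edgeR adjusted p = 7.98e-09). Nfkbie, encoding the inhibitor IkB-epsilon, rose within its first intron (2068 bp) from 22.7 and 24.4 to 72.9 and 106 (log2 change 1.92 ± 0.25, edgeR adjusted p = 1.32e-07). Tnfaip3, encoding the deubiquitinating enzyme A20, was gained at a distal region (-62805 bp) that was almost unmarked at rest. That region held 2.52 and 2.04 tags in Veh and 38.4 and 41.4 in KLA (log2 change 4.10 ± 0.51, edgeR adjusted p = 3.36e-08). At the Tnfaip3 promoter itself (91 bp) the Veh libraries held 56.7 and 56 tags and the KLA libraries 78 and 78.6, which did not pass the test (log2 change 0.47 ± 0.22, edgeR adjusted p = 0.139). Nfkbia, which encodes IkB-alpha, had 4 gained regions, the clearest at 582 bp with 71.9 and 72.8 tags in Veh and 194 and 174 in KLA (log2 change 1.35 ± 0.17, edgeR adjusted p = 4.21e-08). The call of one of the 4, at 3832 bp, ended under TMM, with DESeq2 and without any one of the libraries. The promoters of Rel, Rela and Nfkb1 did not pass the test, with log2 changes of 0.05 ± 0.15, 0.39 ± 0.23 and 0.32 ± 0.16. That of Relb passed the p threshold but stayed under 2-fold, at 0.56 ± 0.14. The 5 lost regions were those at Nfkbiz, Nfkbia and Tnip3 described below and regions within Rela (11375 bp) and Nfkb1 (94366 bp), whose calls ended when single libraries were left out.

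Cytokine genes had 13 gained and 2 lost regions of 39 (33.3% and 5.13%), and their median log2 change of 1.08 came next after that of the interferon-stimulated genes. Il6 was almost unmarked in Veh. Its region at 131 bp, in the first intron, held 1.89 and 1.02 tags per 10 M in Veh and 34 and 30.3 in KLA (log2 change 4.43 ± 0.61, edgeR adjusted p = 3.39e-07). Il23a, the p19 subunit gene of interleukin 23, showed the same at its promoter (-354 bp), from 2.52 and 3.57 to 27 and 43.4 (log2 change 3.48 ± 0.54, edgeR adjusted p = 4.26e-06). Tnf, which encodes the prototype inflammatory cytokine, was already marked at 1341 bp, where the Veh libraries held 16.4 and 32.6 tags and the KLA libraries 96.2 and 91 (log2 change 1.91 ± 0.27, edgeR adjusted p = 9.80e-07). Veh replicates of Tnf spread by about the size of the lower value, yet both lay far below KLA. The Il15 promoter (-658 bp) went from 16.4 and 16.8 to 62.9 and 39.98 (log2 change 1.63 ± 0.32, edgeR adjusted p = 1.76e-04). A region at -2309 bp of Il1b rose from 6.93 and 5.60 to 24.5 and 29.6 (log2 change 2.10 ± 0.51, edgeR adjusted p = 0.00234), a call that ended without Veh replicate 2 (adjusted p = 0.073). Regions -57836 bp and 17906 bp from Il12a, which encodes the p35 subunit of interleukin 12, rose by 2.76 and 2.72 in log2, and both calls ended when 1 Veh library was left out. Chemokine genes had 3 gained regions of 19 (15.8%) and none lost. Near Ccl3, which encodes a chemoattractant for monocytes, a distal region (9034 bp) went from 30.9 and 31.6 to 75.5 and 88.2 (log2 change 1.39 ± 0.26, edgeR adjusted p = 1.02e-04).

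Genes of inflammatory enzymes and acute phase proteins had 13 gained and 2 lost regions of 47 (27.7% and 4.26%, median 0.71). Ptgs2, encoding cyclooxygenase 2, had 5.04 and 4.58 tags at 189 bp in Veh and 28.3 and 28.3 in KLA (log2 change 2.54 ± 0.55, edgeR adjusted p = 6.85e-04). Ptges, the inducible prostaglandin E synthase gene, had gained regions upstream at -21972 and -24084 bp. The former held 6.93 and 9.68 tags in Veh and 51.6 and 61.4 in KLA (log2 change 2.74 ± 0.38, edgeR adjusted p = 3.38e-07). Pla2g4a, which encodes the phospholipase that releases arachidonic acid, gained at 81435 bp, from 22.1 and 22.9 to 54.1 and 84.8 (log2 change 1.62 ± 0.30, edgeR adjusted p = 7.91e-05). Ptgs1, encoding cyclooxygenase 1, fell at -13249 bp from 9.46 and 10.7 to 0.629 and 2.07 (log2 change -2.86 ± 1.00, edgeR adjusted p = 0.0425), a call that ended without any one of the libraries and with the replicate number as a block. Alox5ap, encoding the activating protein of 5-lipoxygenase in the leukotriene branch of the same substrate, fell at 117 bp, from 40.3 and 61.1 to 10.1 and 14.5 (log2 change -2.05 ± 0.38, edgeR adjusted p = 7.91e-05). The acute phase gene Saa3 had a region at -8455 bp that rose from 1.89 and 0.509 to 56 and 33.1 (log2 change 5.21 ± 0.65, edgeR adjusted p = 4.18e-08). Mmp14, the membrane-type matrix metalloproteinase gene, rose at 2113 bp from 13.9 and 12.7 to 70.4 and 105 (log2 change 2.71 ± 0.34, edgeR adjusted p = 3.35e-08). Gch1, which encodes the first enzyme of tetrahydrobiopterin synthesis, rose at 1279 bp from 39.7 and 49.4 to 114 and 116 (log2 change 1.36 ± 0.21, edgeR adjusted p = 2.56e-06).

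Receptors of microbial patterns and their adaptors had 15 gained regions of 65 (23.1%) and 1 lost (1.54%). Nod2, the cytosolic sensor of muramyl dipeptide, contributed gains and that loss. Neighbouring intronic regions at 2864 and 3172 bp rose, the former from 18.9 and 9.17 to 96.2 and 98.6 tags per 10 M (log2 change 2.82 ± 0.31, edgeR adjusted p = 2.46e-09). Further into the gene, at 21414 bp, another intronic region fell from 33.4 and 23.9 to 6.92 and 4.14 (log2 change -2.34 ± 0.50, edgeR adjusted p = 6.10e-04). Irak3, which encodes the kinase-like inhibitor IRAK-M, rose at 107 bp from 55.5 and 58.1 to 185 and 199.9 (log2 change 1.76 ± 0.19, edgeR adjusted p = 1.70e-09). A region 45386 bp from Tlr1 rose from 8.20 and 12.2 to 31.4 and 73.1 (log2 change 2.32 ± 0.40, edgeR adjusted p = 3.21e-05). Other feedback regulators of signalling had 28 gained and 5 lost regions of 142 (19.7% and 3.52%). Socs3, the inhibitor of cytokine receptor signalling, had 4 gained regions, and that at -6897 bp rose from 2.52 and 2.04 to 59.1 and 58.6 (log2 change 4.66 ± 0.52, edgeR adjusted p = 2.67e-09). Zc3h12a, which encodes the endonuclease Regnase-1, was strongly marked in both conditions at 3351 bp, with 88.9 and 106 tags in Veh and 276 and 309.5 in KLA (log2 change 1.58 ± 0.15, edgeR adjusted p = 3.71e-11). The phosphatase genes Dusp2 and Dusp16 and the Ras pathway inhibitor gene Spred2 gained at their promoters, by 1.64 ± 0.33, 1.68 ± 0.22 and 1.59 ± 0.22 in log2. The 5 losses in this list were all distal. The region -65197 bp from Gadd45a fell from 64.9 and 66.7 to 13.8 and 11.7 (log2 change -2.36 ± 0.33, edgeR adjusted p = 4.43e-07), while Gadd45b, its stress-induced relative, gained at 4 regions, with 18.3 and 17.3 tags at 2434 bp in Veh and 103 and 116 in KLA (log2 change 2.62 ± 0.24, edgeR adjusted p = 2.78e-11). Of those 4, the calls at 5428 and -1395 bp ended when single libraries were left out, and the former also under TMM, with DESeq2 and in the WT libraries alone.

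Glycolysis and HIF1 genes had 14 gained regions of 61 (23%) at 10 genes and none lost, with a median of 0.63. Slc2a6, a hexose transporter gene, rose at its promoter (-69 bp) from 11.3 and 12.7 to 47.8 and 42 tags per 10 M (log2 change 1.89 ± 0.36, edgeR adjusted p = 1.12e-04). The promoter of the lactate dehydrogenase gene Ldha (37 bp) rose from 56.7 and 57 to 119 and 139 (log2 change 1.18 ± 0.20, edgeR adjusted p = 2.82e-05), and Gapdh rose at 915 bp from 83.2 and 83 to 231 and 235 (log2 change 1.49 ± 0.16, edgeR adjusted p = 9.46e-10). A list of 16 housekeeping genes, in contrast, had 2 gained regions of 32 (6.25%), though its median of 0.44 was above that of all regions. Antigen presentation and costimulation genes had 4 gained regions of 27 (14.8%) and none lost. Tapbp, which encodes the peptide-loading factor tapasin, rose at 318 bp from 41.6 and 56.5 to 133 and 159 (log2 change 1.56 ± 0.19, edgeR adjusted p = 2.81e-08). Psme1, a subunit gene of the proteasome activator PA28, rose at its promoter (-18 bp) from 34 and 41.3 to 79.2 and 93.7 (log2 change 1.19 ± 0.24, edgeR adjusted p = 2.44e-04). Integrin and adhesion genes had 8 gained and 2 lost regions of 55 (14.5% and 3.64%). Itgal, the alpha chain of LFA-1, gained at 1030 bp, from 17 and 12.7 to 104 and 98.6 (log2 change 2.77 ± 0.30, edgeR adjusted p = 1.70e-09), and Itga6, a laminin receptor chain, fell at 159 bp from 18.9 and 24.4 to 3.77 and 2.07 (log2 change -2.85 ± 0.65, edgeR adjusted p = 0.00133). AP-1, bZIP and immediate early factors had 16 gained and 4 lost regions of 131 (12.2% and 3.05%). Batf, whose product pairs with Jun proteins, gained at 18038 bp, from 13.9 and 14.8 to 105 and 105 (log2 change 2.87 ± 0.30, edgeR adjusted p = 7.94e-10). An upstream region of Fosb (-6478 bp) fell from 80.7 and 74.4 to 10.7 and 9.65 (log2 change -2.92 ± 0.36, edgeR adjusted p = 3.29e-08). Cell death genes had 6 gained and 4 lost regions of 44 (13.6% and 9.09%).

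**Figure D2:**
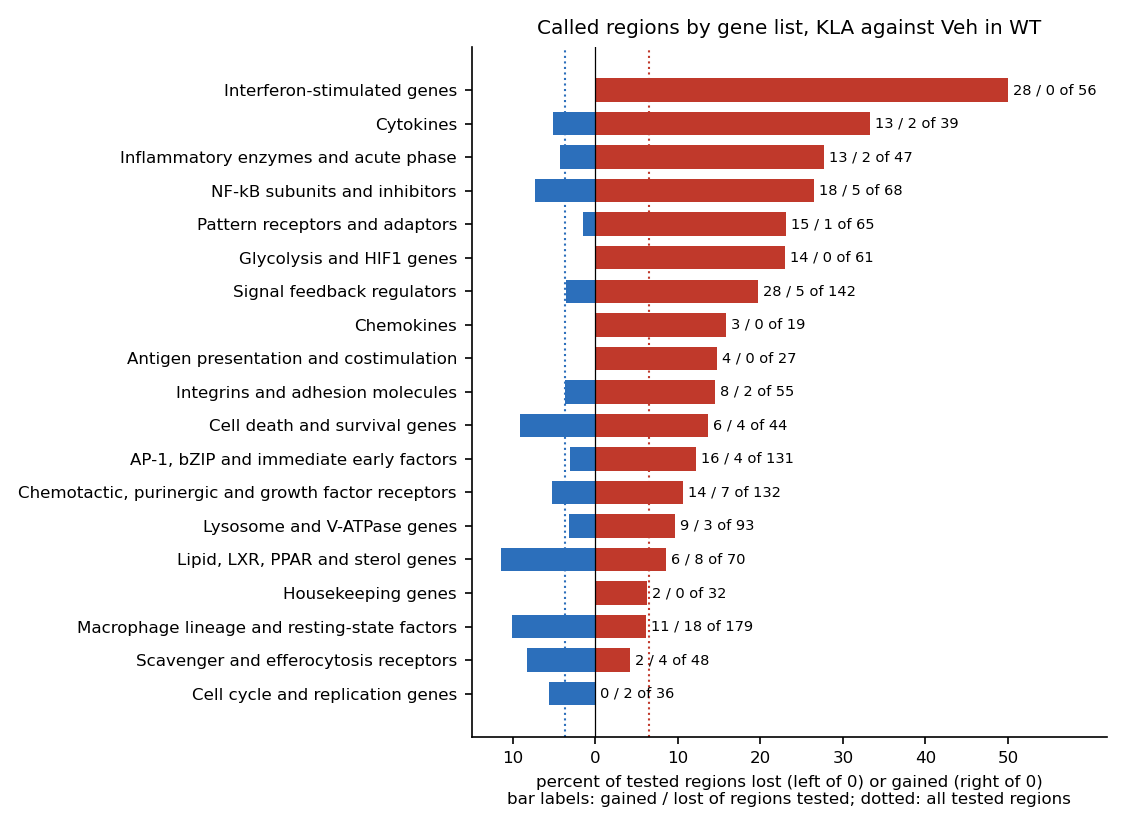
Percent of the tested regions next to the genes of each list that were gained (right of 0) or lost (left of 0) after KLA in WT BMDMs, with dotted lines for the shares of all 18504 tested regions, 6.49% gained and 3.72% lost. Interferon-stimulated genes stand at 50% gained and none lost, and lists with larger shares lost than gained, such as cell cycle genes, lie toward the bottom.

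Lists in which losses outnumbered gains were those of macrophage lineage factors, scavenger receptors, lipid metabolism and the cell cycle. The lineage and resting-state factors had 18 lost regions at 13 genes and 11 gained regions at 8 genes of 179 tested (10.1% and 6.15%), with a median of -0.03. Cebpa, which encodes the C/EBP factor of myeloid commitment, was counted with the AP-1 and bZIP factors and not in this list. It fell at -1049 bp from 85.7 and 61.1 to 16.3 and 13.1 tags per 10 M (log2 change -2.30 ± 0.28, edgeR adjusted p = 3.25e-08). Foxp1 lost 3 regions and gained 1, and the lost call at 109 bp ended without KLA replicate 2. At -1125 bp, within the first intron of a longer transcript, it fell from 63.7 and 86.1 to 5.03 and 12.4 (log2 change -3.12 ± 0.36, edgeR adjusted p = 5.62e-09), and at 77998 bp it rose from 8.20 and 8.15 to 45.9 and 50.3 (log2 change 2.55 ± 0.40, edgeR adjusted p = 6.68e-06). Foxo3 fell at -1160 bp and Nfatc1, which is outside the list, at -155 bp, with log2 changes of -1.30 ± 0.23 and -1.40 ± 0.26. The gene of PU.1, Spi1, had its most marked region at -11992 bp, with 166 and 154 tags in Veh and 211 and 183 in KLA (log2 change 0.30 ± 0.15, edgeR adjusted p = 0.171). That of Csf1r, the M-CSF receptor gene counted in the list of growth factor receptors, held 103 and 107 in Veh and 116 and 173 in KLA (log2 change 0.45 ± 0.18, edgeR adjusted p = 0.081). Neither passed the test. Mitf, counted among the lysosome and V-ATPase genes, gained at 59672 bp, from 20.2 and 20.9 to 65.4 and 92.4 (log2 change 1.93 ± 0.29, edgeR adjusted p = 2.02e-06).

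Scavenger and efferocytosis receptors had 4 lost and 2 gained regions of 48 (8.33% and 4.17%, median 0.00, or -0.14 under TMM). Trem2, the lipid-sensing receptor of tissue macrophages, fell at 1065 bp from 60.5 and 76.9 to 22.6 and 22.1 tags per 10 M (log2 change -1.62 ± 0.27, edgeR adjusted p = 1.81e-05). Gas6, which encodes the ligand that bridges apoptotic cells to MERTK, fell at -9635 bp from 80.7 and 92.2 to 21.4 and 19.99 (log2 change -2.06 ± 0.28, edgeR adjusted p = 3.50e-07). Marco, a scavenger receptor gene counted among the pattern receptors, instead rose at -27673 bp from 18.3 and 20.4 to 54.7 and 56.5 (log2 change 1.52 ± 0.31, edgeR adjusted p = 4.16e-04). Lipid, LXR, PPAR and sterol genes had 8 lost and 6 gained regions of 70 (11.4% and 8.57%, median 0.01, or -0.13 under TMM). Abcd2, a peroxisomal fatty acid transporter gene, fell at its promoter (14 bp) from 72.5 and 69.3 to 28.9 and 27.6 (log2 change -1.32 ± 0.26, edgeR adjusted p = 2.02e-04), and a region -34153 bp from the sterol sensor gene Insig1 also fell, with a log2 change of -2.01 ± 0.46. The 3 gained regions upstream of Acsl1, a long-chain acyl-CoA synthetase gene, went the other way, and that at -38936 bp rose from 45.4 and 48.9 to 135 and 143 (log2 change 1.56 ± 0.19, edgeR adjusted p = 3.29e-08), while the call at -44538 bp ended without Veh replicate 2. Chemotactic, purinergic and growth factor receptors had 14 gained and 7 lost regions of 132 (10.6% and 5.3%). Among the losses was P2rx7, the ATP-gated channel of inflammasome activation, which fell at 477 bp from 49.8 and 45.8 to 15.7 and 17.9 (log2 change -1.50 ± 0.33, edgeR adjusted p = 8.56e-04). Lysosome and V-ATPase genes had 9 gained and 3 lost regions of 93 (9.68% and 3.23%, median -0.01). Ctsz and Grn gained within the genes, by 1.80 ± 0.23 at 2700 bp and 1.50 ± 0.20 at 2159 bp, whereas a region -3749 bp from Lamp1 fell from 102 and 114 to 19.5 and 15.9 (log2 change -2.60 ± 0.27, edgeR adjusted p = 3.12e-10). Cell cycle and replication genes had no gained region and 2 lost regions of 36 (5.56%), and their median of -0.45 was the lowest of the lists. Pcna, the sliding clamp of DNA replication, fell at 490 bp from 24 and 19.4 to 1.89 and 5.51 (log2 change -2.54 ± 0.55, edgeR adjusted p = 6.78e-04). Outside the list, the promoter of Mxd3, a MAX partner gene (-116 bp), fell from 57.4 and 57.6 to 5.66 and 11 (log2 change -2.79 ± 0.40, edgeR adjusted p = 9.00e-07).

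Several of the lost regions with the lowest p lay next to genes outside these lists. The Ctdsp2 promoter (-33 bp), next to a gene for a C-terminal domain phosphatase, fell from 151 and 171 to 45.3 and 39.3 tags per 10 M (log2 change -1.93 ± 0.20, edgeR adjusted p = 9.16e-10). Trf, which encodes transferrin, fell at -255 bp from 144 and 149.7 to 41.5 and 51 (log2 change -1.67 ± 0.20, edgeR adjusted p = 2.59e-08). Regions -64051 bp from 6820426E19Rik and -5642 bp from Ap5s1 fell from 137 and 99.3 to 11.3 and 22.1 (log2 change -2.83 ± 0.27, edgeR adjusted p = 6.95e-11) and from 123 and 126 to 20.1 and 30.3 (log2 change -2.31 ± 0.23, edgeR adjusted p = 1.42e-10). In each of these regions both KLA libraries lay below both Veh libraries by more than 2-fold. The Mtss1 region of the sequence above (591 bp) was also lost, with a log2 change of -2.40 (edgeR adjusted p = 5.15e-12). Of genes with several called regions, Cd300a, an inhibitory receptor gene, had the most lost regions, 4. That at 204 bp fell from 91.4 and 115 to 35.2 and 45.5 (log2 change -1.36 ± 0.22, edgeR adjusted p = 1.34e-05) and that at 13422 bp from 16.4 and 22.4 to 3.14 and 3.45 (log2 change -2.54 ± 0.57, edgeR adjusted p = 0.00106), while the calls at -5212 and 8183 bp each ended when 1 library was left out.

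**Figure D3:**
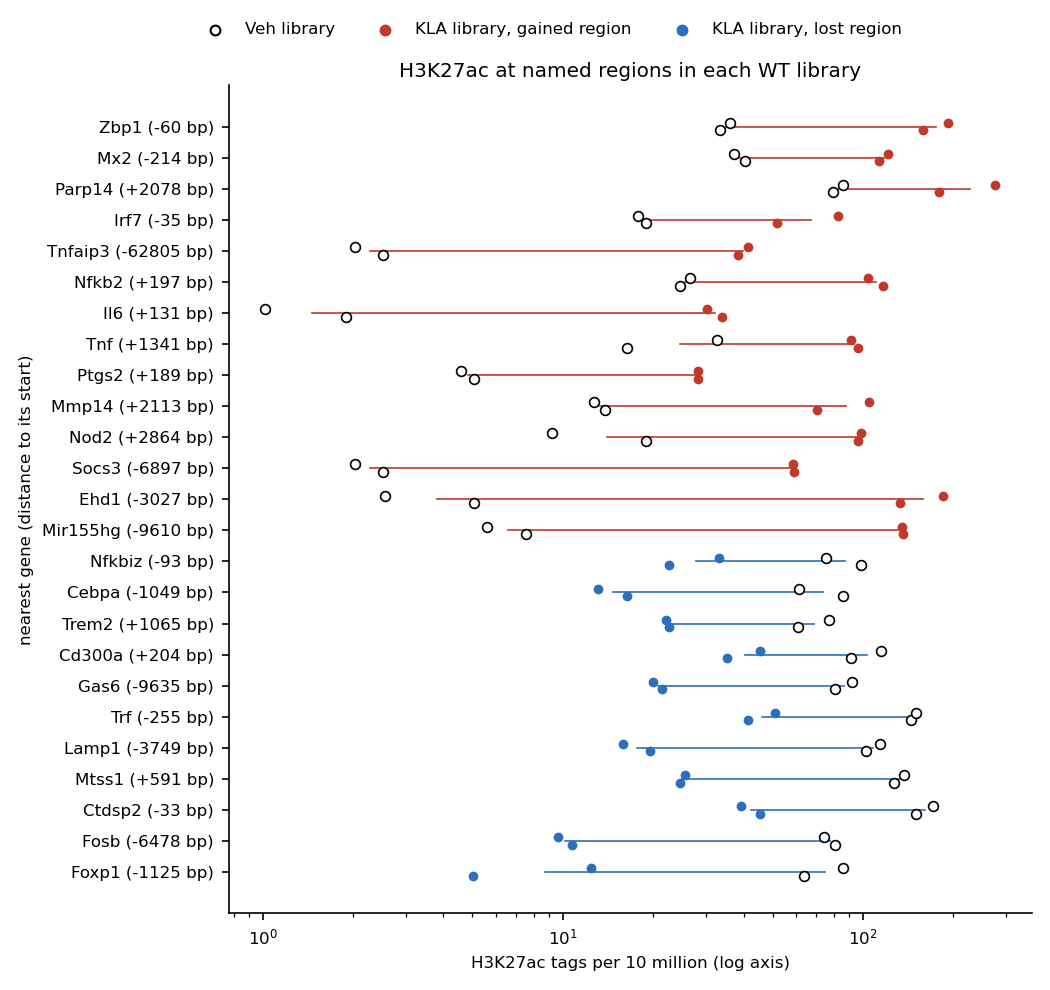
H3K27ac tags per 10 M (log axis) at 25 named regions in each WT library, with open circles for the 2 Veh libraries and filled circles for the 2 KLA libraries, red where the region was gained and blue where it was lost. A line joins the group means, and no Veh value overlaps a KLA value in any of these regions, as in every called region.

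Gained regions lay near each other. Of the 1200, 27.3% had another gained region within 10 kb and 0.667% a lost region, where 6.48% and 3.18% of all tested regions had a gained or a lost region that near. Of the lost regions, 15% had another lost region within 10 kb and 1.02% a gained one. The nearest genes numbered 938 for gained and 605 for lost regions, and 19 had both, 2.03% and 3.14% of each list. The gene with most gained regions was 4930529L06Rik, a noncoding locus on chromosome 16 with 6, from -52487 to -75842 bp. At -73105 bp (chr16:84606580-84606789) the tags rose from 1.89 and 1.53 to 52.2 and 88.2 (log2 change 5.31 ± 0.47, edgeR adjusted p = 4.51e-12), and at -57899 bp from 18.9 and 14.8 to 73.6 and 83.4 (log2 change 2.23 ± 0.28, edgeR adjusted p = 5.68e-08). The call at -64332 bp rested on fewer than 10 tags per 10 M in each library and ended under TMM. Further along the same chromosome lies the Mir155hg region of the sequence above (chr16:84703223-84703604), upstream of the host gene of miR-155, a microRNA of the inflammatory response. It rose from 7.57 and 5.60 to 136 and 135 (log2 change 4.37 ± 0.30, edgeR adjusted p = 1.70e-15). Regions near the microRNA genes Mir147 and Mir99b rose by 3.58 ± 0.33 and 4.06 ± 0.43 in log2. Akna, which encodes an AT-hook protein, had 4 gained regions from -5459 to -7314 bp, of which that at -6073 bp lost its call under TMM. At the first of these the tags rose from 12 and 12.2 to 133 and 113 (log2 change 3.34 ± 0.27, edgeR adjusted p = 4.76e-13). Ehd1, an endocytic recycling gene, had gains on both sides of its start, from 5.04 and 2.55 to 133 and 185 at -3027 bp (log2 change 5.40 ± 0.34, edgeR adjusted p = 4.79e-17) and from 9.46 and 12.2 to 69.8 and 108 at 1388 bp (log2 change 3.01 ± 0.33, edgeR adjusted p = 2.41e-09).

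Tnfrsf1b, which encodes TNF receptor 2, was the only gene with at least 2 gained and at least 2 lost regions. Upstream, at -27230 bp, the tags rose from 3.15 and 6.62 to 54.1 and 40.7 per 10 M (log2 change 3.22 ± 0.45, edgeR adjusted p = 5.73e-07), and at -10909 bp from 107 and 92.7 to 296 and 341 (log2 change 1.68 ± 0.14, edgeR adjusted p = 2.97e-12). Within the gene, at 13233 bp (chr4:145233489-145233785), they fell from 149 and 127 to 30.8 and 21.4 (log2 change -2.39 ± 0.24, edgeR adjusted p = 3.12e-10). The gained region at -10909 bp and the lost region at 13233 bp were both strongly marked in Veh, at a similar level. A neighbouring region at 12819 bp fell, with a log2 change of -1.05 ± 0.21, and that at 7456 bp rose by 1.23 ± 0.36. The first of these calls ended without KLA replicate 2 and the other without Veh replicate 1 or KLA replicate 2.

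At 4 lost regions of NF-kB and cytokine genes, singled out after their values were seen, H3K27ac was not lower in the wider window of the DMSO experiment, which also differs in cells and libraries. The median length of the lost regions was 311 bp. Nfkbiz encodes IkB-zeta, a nuclear coactivator of NF-kB targets. Its promoter region (-93 bp, chr16:55838598-55838871) fell from 98.4 and 75.4 to 22.6 and 33.1 tags per 10 M (log2 change -1.64 ± 0.27, edgeR adjusted p = 9.53e-06). The matched 1000 bp window held 160.3 and 147 tags in Veh and 302 and 262 in KLA in the DMSO experiment (log2 change 0.88 ± 0.21, edgeR adjusted p = 8.04e-05). Thus the direction differed between the narrow region in the WT libraries and the wide window in the others. In the Pgc1b flox experiment that window held 255 and 266 in Veh and 296 and 350.4 in KLA (log2 change 0.31 ± 0.10, edgeR adjusted p = 0.00342), and p65 tags at the peak there rose from 41.3 to 486 per 10 M (log2 change 3.56, edgeR adjusted p = 1.10e-06). The Nfkbia promoter (-15 bp) fell from 113 and 109 to 42.1 and 64.8 (log2 change -1.06 ± 0.23, edgeR adjusted p = 8.03e-04), a call that ended without KLA replicate 1 (log2 change -0.77), while the region at 582 bp rose. Its wide window held 331 and 351 in Veh and 488 and 413 in KLA in the DMSO experiment (log2 change 0.40 ± 0.19, edgeR adjusted p = 0.0653). The Tnip3 promoter (-109 bp) and Il10 (1361 bp) showed narrow losses of -1.58 ± 0.51 and -1.27 ± 0.41 that ended when single libraries were left out. Their wide windows in the DMSO experiment had log2 changes of 0.11 and 0.28, with edgeR adjusted p = 0.665 and 0.373. In the Pgc1b flox experiment the Tnip3 window fell by less than 2-fold (log2 change -0.47 ± 0.09, edgeR adjusted p = 1.95e-06), and that of Il10 changed by -0.04 (adjusted p = 0.879). Of 562 lost regions with a matched window in the DMSO experiment, 12 windows were higher in KLA, and these 4 were among them.

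By position, 520 gained and 249 lost regions lay within 2 kb of a TSS, 5.26% and 2.52% of the promoter regions tested, and 680 and 439 were distal, 7.9% and 5.1% of the distal regions tested. Distal gains were larger, with a median log2 change of 1.69 against 1.37 at promoters. By accessibility, regions that the deposited sets placed among open sites in KLA but not in Veh made up 42.6% of the gained, 23.4% of the lost and 25.6% of all tested regions. Sites open in Veh but not in KLA made up 12.1% of the gained, 26.3% of the lost and 15.8% of all regions. The reciprocal was not complete, since 145 regions gained H3K27ac at sites called open only in Veh.

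In the 200 bp around region centres, ISRE letters were found in 10.6% of gained promoter regions, against 3.61% of lost and 3.69% of all tested promoter regions. PU.1 letters were in 6.15%, 3.21% and 3.32% of these promoter sets. At distal regions they ran the other way, in 9.71% of gained, 10.5% of lost and 12.4% of all tested regions. Sp/KLF letters, which are common in CpG-rich promoters, were in 50% of gained, 54.2% of lost and 62.5% of all promoter regions, and the median GC content was 63%, 65% and 66%. Gained promoters were thus the poorest in GC of the 3 sets. At distal regions the kB letters were in 6.47% of gained, 3.19% of lost and 4.43% of all, and the STAT letters in 8.38%, 5.01% and 5.9%. AP-1 letters ran the other way, in 23.1% of gained, 30.5% of lost and 26.8% of all distal regions, as did MAF letters, in 5.59%, 9.57% and 7.65%. Distal GC content hardly differed, with medians of 50.5%, 51% and 50.5%. A match of letters does not show binding, and its absence says only that these letters are not in the window.

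Binding of 8 factors in separate libraries titled WT, 2 Veh and 2 KLA each, was read at the peak nearest to each region centre within 500 bp. Their library names give C57BL/6 BMDMs without the tag NWT of the 4 H3K27ac libraries, so they are not described here as floxed. The Veh libraries of p300 were labelled as the start of KLA treatment, and those of p65, Fosl2, PU.1, NCoR and HDAC3 as 6 h of vehicle. The factors were the NF-kB subunit p65, the acetyltransferase p300, the AP-1 factor Fosl2, the lineage factor PU.1, the corepressor NCoR with its deacetylase HDAC3, the coactivator PGC1b and the kinase ERK1. Of distal gained regions, 95.9% had a p65 peak, 97.8% a p300 peak and 96.6% an NCoR peak, against 84.6%, 90.1% and 88.9% of distal regions not called and 83.8%, 95.2% and 91.3% of distal lost regions. A PU.1 peak lay at 80.4% of distal gained regions, 83.9% of those not called and 90.4% of those lost. At distal gained regions the median log2 change of p65 tags was 2.30, at distal regions not called 1.02 and at distal lost regions 0.25. For p300 the medians were 1.44, 0.20 and -0.61, and for Fosl2 1.01, -0.14 and -0.84. All 3 factors thus ranked gained above not called and not called above lost. The same order held for PU.1, with 0.10, -0.38 and -0.80, and for NCoR and HDAC3, with 0.38, -0.35 and -0.85 and with 0.59, -0.12 and -0.57. PGC1b and ERK1 had 0.86 and 0.83 at gained, 0.11 and 0.08 at not called, and -0.41 and -0.45 at lost distal regions. At promoters the order was again the same for each factor. For p65 the promoter medians were 0.86 at gained, -0.23 at not called and -0.49 at lost regions. The HDAC3 KLA replicate 2 and Fosl2 KLA replicate 1 libraries were the shallowest read here, at 5.69 and 4.30 M tags. TMM scaling shifted the values of a factor together, so that p65 at gained promoters read -0.35 and PU.1 at gained promoters 0.22 in place of -0.19, and it left the order of the groups in place. The distal medians of p65 under TMM were 1.07 at gained, -0.20 at not called and -0.96 at lost regions, so that signs depended on the scaling while the ranking did not. The share of p65 tags in peaks was 12.7% and 14.4% in Veh and 34.1% and 37.1% in KLA, and the part of that difference in the medians was not tested.

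**Figure D4:**
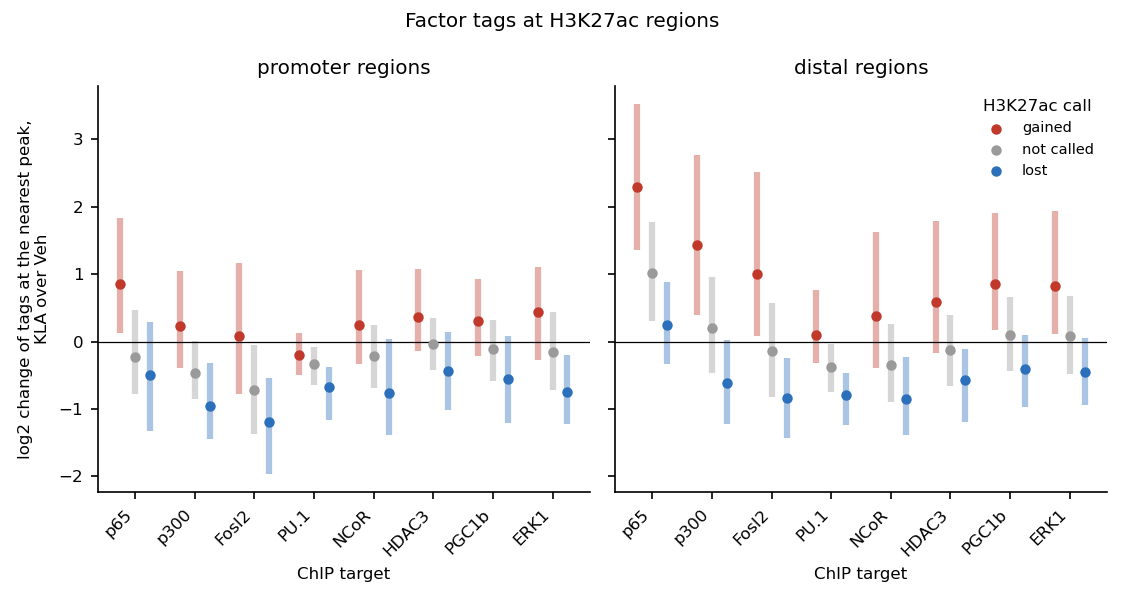
Median log2 change (points) and quartiles (bars) of ChIP-seq tags, KLA over Veh, at the factor peak nearest to H3K27ac regions that were gained, not called or lost in WT, for promoter regions (left) and distal regions (right). For each factor the gained median is the highest and the lost median the lowest, and p65 at distal gained regions has the highest median, 2.30.

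Some named loci are given as examples, chosen after their values were seen, with factor tags as the mean of 2 libraries. At the Ehd1 region at -3027 bp, p65 tags rose from 8.66 to 469 per 10 M (log2 change 5.76, edgeR adjusted p = 6.40e-07) and NCoR tags from 4.74 to 174 (log2 change 5.16, edgeR adjusted p = 3.36e-05). At the Mir155hg region p65 rose from 2.71 to 366 (log2 change 7.03, edgeR adjusted p = 6.40e-07). Both regions also gained H3K27ac by more than 4 in log2. At the lost Ap5s1 region p65 fell from 72.4 to 17.2 (log2 change -2.07, edgeR adjusted p = 6.29e-04) and NCoR from 107 to 10.4 (log2 change -3.35, edgeR adjusted p = 9.84e-05). The gained region of Tnf at 1341 bp differed in this, since NCoR tags there fell from 175 to 95.7 (log2 change -0.87, edgeR adjusted p = 0.0101) and p65 tags went from 81 to 121 (log2 change 0.59, edgeR adjusted p = 0.0841). A gained region near the integrin gene Itgav (-9493 bp, H3K27ac log2 change 3.16 ± 0.67) had NCoR tags that fell from 544 to 89.3 (log2 change -2.61, edgeR adjusted p = 2.65e-05).

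The response was then examined in H3K27ac libraries that had no part in the calls. The tables of the DMSO and Pgc1b flox experiments count tags in 1000 bp windows on sites open in Veh, so sites open only in KLA are under-represented there, and a window centre lay within 500 bp for 751 and 750 of the 1200 gained regions and for 562 and 563 of the 688 lost. In the DMSO experiment 47.9% of the matched gained regions lay in windows called gained, where 6.73% of all windows were, and 77.2% of the matched lost regions in windows called lost, where 28.1% of all windows were. The median log2 change was 0.95 at matched gained regions and -1.71 at matched lost regions, against -0.42 over all windows. In the Pgc1b flox experiment 36.3% and 74.8% were called the same way, against 5.22% and 25.6% of all windows, with medians of 0.65 and -1.47 against -0.45. Only 2 and 3 of the matched gained regions were called lost in these experiments, and no matched lost region was called gained. In all 3 experiments, 251 of 750 gained regions (33.5%) and 380 of 562 lost regions (67.6%) were called the same way. The share of all tested regions called gained, or lost, in both other experiments was not counted. Among the regions gained in all 3 was Il6, whose window held 13.3 and 18.3 tags per 10 M in Veh and 247 and 237 in KLA in the DMSO experiment (log2 change 3.93 ± 0.29, edgeR adjusted p = 2.36e-40). The Usp18 window held 49.9 and 63.7 in Veh and 476 and 535 in KLA in the Pgc1b flox experiment (log2 change 3.17 ± 0.13, edgeR adjusted p = 9.93e-116), and that of Mmp14 held 8.42 and 8.31 in Veh and 285 and 291 in KLA (log2 change 5.09 ± 0.22, edgeR adjusted p = 3.72e-97). All 3 were higher in every KLA library than in any Veh library. Of the lost regions, the Trem2 window at 26 bp, where the WT call ended without Veh replicate 2, held 691 and 727 in Veh and 127 and 71.5 in KLA in the DMSO experiment (log2 change -2.82 ± 0.21, edgeR adjusted p = 2.42e-38), and the Foxp1 window at -1125 bp held 457 and 469.7 in Veh and 30.00 and 31 in KLA in the Pgc1b flox experiment (log2 change -3.92 ± 0.14, edgeR adjusted p = 2.17e-134). The gain at the Bbc3 region (3643 bp), next to a proapoptotic gene, was not called there, with a log2 change of 1.23 ± 0.23 in WT and window changes of 0.05 and -0.11 (edgeR adjusted p = 0.857 and 0.169). The share of tags in the windows was 30.6% to 31.5% in DMSO Veh and 22.9% to 27.9% in DMSO KLA, and 35.8% to 35.9% and 29.9% to 30.1% in the Pgc1b flox experiment. Its part in the excess of lost windows was not tested.

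**Figure D5:**
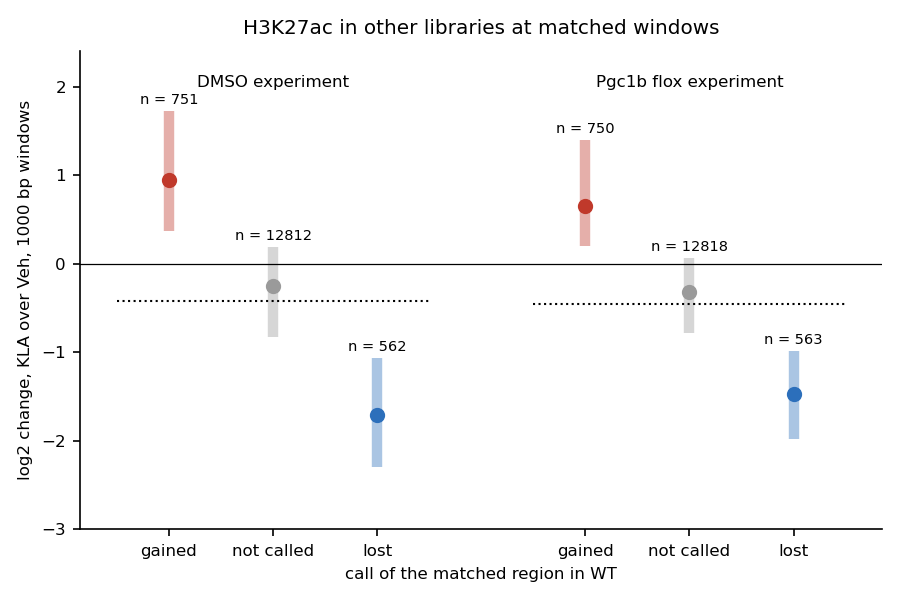
Median log2 change (points) and quartiles (bars) of H3K27ac tags, KLA over Veh, in 1000 bp windows of the DMSO and Pgc1b flox experiments, by the call of the matched region in WT, with dotted lines for the median of all windows. Gained regions had medians of 0.95 and 0.65 and lost regions -1.71 and -1.47.

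In NKO cells, 1049 of the gained and 675 of the lost regions had a change of the same sign as in WT. The share of all tested regions with the same sign in both was not counted. The median log2 change in NKO was 0.73 at the gained regions, against 1.52 in WT, and -1.32 at the lost regions, against -1.67. Of the gained regions, 337 (28.1%) were called gained in NKO, where 2.75% of all tested regions were, and 387 lost regions (56.2%) were called lost, where 7.96% of all were. These regions were selected on WT libraries, which share no library with the NKO contrast but do enter the difference. The difference between the responses was called at 0.697% of all tested regions, at 47 gained regions, each with a lower response in NKO, and at 1 lost region in each direction. Under TMM scaling 3 of the gained regions were called. The share of tags in the regions was 7.18% and 6.55% in the NKO Veh libraries, 6.20% and 6.25% in the NKO KLA libraries, and 5.55% to 6.70% in WT, and its part in the differences was not tested. At 3 regions of interferon-stimulated genes the difference did not pass the test, with values of 0.00 at Mx2 (-214 bp, edgeR adjusted p = 0.999), -0.04 at Zbp1 (1073 bp, adjusted p = 0.999) and -0.77 at Trim30a (-282 bp, adjusted p = 0.107). These 3 are examples, and the gained regions of that list with a called difference were not counted. Csf3, which encodes the granulocyte growth factor G-CSF, had the largest called difference among the named regions. Its region at 8038 bp held 15.1 and 15.8 tags per 10 M in WT Veh and 67.3 and 75.8 in WT KLA (log2 change 2.20 ± 0.31, edgeR adjusted p = 5.69e-07), but 50.1 and 45.9 in NKO Veh and 32.9 and 26.4 in NKO KLA. The NKO KLA libraries thus lay below the NKO Veh libraries, which in turn lay above those of WT, and the difference was -2.88 in log2 (edgeR adjusted p = 1.52e-04).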

How the data were processed

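H3K27ac ChIP-seq tags of 4 WT libraries were analysed, with NKO, DMSO, Pgc1b flox and factor libraries for comparison (11 of 15 deposited tables). The authors aligned reads to mm10 with Bowtie2 and counted tags with HOMER, at most 3 per position, and the deposited values are raw counts per region without normalization. Versions were not given in the sources used here. Regions with 16 or more tags in a library of the table (4 for factor peaks) were tested with the edgeR 4.0.16 quasi-likelihood F-test (R 4.3.3), two-sided, with the header totals as library sizes and the 8 WT and NKO libraries in 1 fit. Calls required an adjusted p under 0.05 and over 2-fold, and SE was the log2 change over the square root of F. Values are tags per 10 M. With simulated 3-fold changes at 200 regions of the 18504 in the WT comparison, 75.5% were recovered with 6 false calls. The simulated counts had the same fixed spread between libraries at every region, not fitted to these libraries. These rates therefore need not hold for the real data. Named were the promoter and distal regions with the lowest p, the genes with most calls, the most strongly marked called regions, and per gene list the called regions with the lowest p and each member's most marked region. Members and lists were chosen with earlier results of these data known. The study's methods call replicates biological. DESeq2 1.42.0 served as an alternative. Python 3.11.15, pandas 2.3.3 and pysam 0.24.0 were used for lists and sequences. RefSeq lay on the same build, with 19750 of 23715 deposited distances within 10 bp of a RefSeq start.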

Additional observations from a re-analysis of the deposited data

Results flagged for a closer look

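At 12 of the gained regions named by rule, the response to KLA differed between NKO and WT by the edgeR test of the difference itself. In each the response was smaller in NKO. The value was -2.88 in log2 at Csf3 (8038 bp). It was -1.78 at Ehd1 (14550 bp), where WT libraries held 34 and 34.1 tags per 10 M in Veh and 172 and 186 in KLA, and NKO libraries 90.7 and 65 in Veh and 102 and 135 in KLA. It was -1.30 at Zc3h12a (4799 bp), -1.09 at Tor1b (-23104 bp), -1.69 at Gadd45b (2434 bp) and -1.10 at Gapdh (915 bp). It was -1.62 at Hk3 (-23 bp), -1.68 at Cd44 (66 bp), -2.27 at Cflar (-4562 bp) and -1.48 at Ccrl2 (20 bp). It was -1.24 at Ptpn1 (-6149 bp) and -1.38 at Ier3 (-8303 bp). Both NKO Veh libraries lay above both WT Veh libraries at 12 of the 12 regions, and both NKO KLA libraries lay below both WT KLA libraries at 10. The regions were selected by a gain in WT and a called difference, which favours such orders. The share of all tested regions with these orders was not counted. NKO Veh libraries held 7.18% and 6.55% of their tags in the regions, WT Veh libraries 5.55% and 5.66%, and the part of this was not tested. Of the 12 differences, 2 were also called under TMM scaling, those of Csf3 and Ehd1, and 11 with the replicate number as a block, all but that of Ier3. The gained call in WT itself ended without either Veh replicate at Cflar, without Veh replicate 2 or KLA replicate 2 at Ier3, and under TMM, with DESeq2 and without Veh replicate 1 at Ptpn1.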

How the results depend on the processing

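With library totals 1888 regions were called. With distal regions alone in the fit there were 1120 calls, 682 gained and 438 lost. The DESeq2 Wald test gave 764 gained regions, all among the 1200, and without a fold minimum 1913 were gained. Leaving out 1 library gave 1027 to 1846 calls, 699 to 1237 gained and 325 to 609 lost. Replicate numbers were not used as pairs, since the labels do not say whether same-numbered libraries shared mice. The r of deviations between WT Veh and WT KLA was -0.01, from 2 pairs. It cannot settle this, because counting error enters the deviations. The fit with the replicate number as a block gave 1832 calls, 1174 gained and 658 lost. The WT libraries fitted alone gave 2129 calls. Of 279 called regions named by rule, 171 kept their call under every alternative, 106 lost it when some library was left out and 28 under TMM. The gained regions with a smaller response in NKO numbered 3 under TMM in place of 47. Factor medians relative to regions not called moved beyond the replicate spread, without a change of sign, at other matching distances. At 100 bp they were 1.03, 1.12 and -0.17 for p65 at gained promoter, gained distal and lost promoter regions, 1.06 for Fosl2 and 0.41 for PU.1 at gained distal regions, and 0.60, 1.15 and -0.79 for p300 at gained promoter, gained distal and lost distal regions. They were 0.66 for NCoR and 0.62 for HDAC3 at gained distal and -0.25 for HDAC3 at lost promoter regions, 0.64 and -0.47 for PGC1b and 0.67 and -0.47 for ERK1 at gained and lost distal regions. At 1000 bp they were 0.18 for PU.1 and 0.45 for HDAC3 at gained promoter regions and 0.82 for ERK1 at gained distal regions. The cause was not tested. With 2 libraries a group, regions with few tags carry the largest counting error.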
